A study of Mus musculus with 30 samples.

Results

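The Iroquois homeobox (Irx) family of the mouse has 6 genes, Irx1 to Irx6, and all 6 were found by symbol among the 38720 genes of the deposited tables. The series used papain-dissociated retinas of newborn pups (P0), from which anti-CD90 magnetic beads drew retinal ganglion cells (RGCs), which send their axons through the optic nerve to the brain; CD90 is the product of Thy1. Poly(A) RNA was sequenced from the bead-selected cells and from the other retinal cells, pooled. The tables cover 3 libraries of mutant non-RGC cells, 3 of mutant RGCs and 3 of wild type (WT) RGCs of C57BL/6 mice. WT non-RGC libraries and the chromatin immunoprecipitation of the series were not analysed here. The labels hold a pair of mutants, Math5Cre; Ezh2f/fG9af/+ and Math5Cre; Ezh2f/f, and the tables say only "mut", so which of them was used is not known. Both carry Cre recombinase under Math5 (Atoh7) control, which does not act in all retinal cells, and both have floxed Ezh2. Which cells of either fraction had recombined was not measured here. Ezh2 encodes the enzyme of Polycomb repressive complex 2 that methylates histone H3 at lysine 27, and G9a, the product of Ehmt2, methylates lysine 9. The labels do not give the animals behind a library, so the p-values rest on the spread between libraries, which may be technical.

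Irx genes encode transcription factors with a homeodomain of the TALE class, named for its loop of extra residues between the first helices, and share a short motif called the Iro box. They were first described in Drosophila, where the Iroquois complex patterns the body wall and the eye. In mammals they form a pair of clusters, IrxA and IrxB, and act in neural tube, heart, limb and retina. In the retina they are known from ganglion cells and, later, from bipolar cells: Irx5 and Irx6 are needed by types of cone bipolar cell, and in chick ganglion cells Irx4 restrains the guidance gene Slit1. Many Irx genes are bound by Polycomb complexes in cells that do not express them.

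On GRCm38, the assembly also called mm10, IrxA lies on chromosome 13 and spans 1311 kb, with Irx1 at 71958232 to 71963723, Irx2 at 72624430 to 72634196 and Irx4 at 73259589 to 73269622. IrxB lies on chromosome 8 and spans 882 kb, with Irx3 at 91798511 to 91801654, Irx5 at 92357796 to 92361456 and Irx6 at 92674289 to 92680956. RefSeq promoter windows on GRCm38.p6 matched 3 of the 6 genes, Irx2, Irx3 and Irx4. The 250 bases before the transcript start that the RefSeq table uses are shown for them, because promoters rich in CpG pairs are typical of Polycomb-bound genes. These 3 genes lay lower in every mutant RGC library than in every WT RGC library, and lower again in every mutant non-RGC library. Irx6, which had no matched window, did so too. The first step held for 24.9% of all genes tested and the second for 20.6%. The share with both steps was not counted, so this order is not read as a result about the members. Its relation to the promoters was not tested. Capitals mark each CpG, and each sequence runs 5′ to 3′ on the strand of its gene. The windows are chr13:72628570-72628819 on the plus strand for Irx2, chr8:91801655-91801904 on the minus strand for Irx3 and chr13:73260247-73260496 on the plus strand for Irx4. The start behind the window is the outer end of the gene for Irx3, but lies 4.39 kb inside the annotated span of Irx2 and 0.908 kb inside that of Irx4, so these windows precede internal starts.
Irx2: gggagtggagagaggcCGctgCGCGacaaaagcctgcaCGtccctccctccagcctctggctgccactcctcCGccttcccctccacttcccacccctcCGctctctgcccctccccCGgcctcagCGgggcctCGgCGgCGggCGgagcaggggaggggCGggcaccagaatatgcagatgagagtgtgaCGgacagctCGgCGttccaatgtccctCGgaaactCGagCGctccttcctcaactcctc
Irx3: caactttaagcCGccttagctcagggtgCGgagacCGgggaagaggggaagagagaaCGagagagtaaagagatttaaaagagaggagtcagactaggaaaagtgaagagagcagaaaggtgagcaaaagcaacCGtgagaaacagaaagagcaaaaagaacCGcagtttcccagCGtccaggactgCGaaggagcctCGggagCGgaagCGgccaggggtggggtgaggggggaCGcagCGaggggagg
Irx4: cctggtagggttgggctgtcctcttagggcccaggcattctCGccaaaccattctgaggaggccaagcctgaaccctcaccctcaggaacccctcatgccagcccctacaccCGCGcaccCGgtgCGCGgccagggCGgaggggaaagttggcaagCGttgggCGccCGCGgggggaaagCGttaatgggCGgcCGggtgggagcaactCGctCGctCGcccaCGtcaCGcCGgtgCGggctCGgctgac
The window of Irx4 held 22 CpG pairs at a GC content of 68.8%, that of Irx2 held 19 at 68.4% and that of Irx3 held 13 at 56.0%. Of the 32851 windows of the same length in the RefSeq table, 14.8% had at least as many CpG pairs as Irx4, 19.7% as many as Irx2 and 31.5% as many as Irx3, and the median window had 6. The sequence ACANNTGT, a palindrome that Iroquois proteins bind and that reads the same on both strands, was in none of the 3 windows and in 6.31% of all windows.

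Each of the 9 libraries had 10551825 to 12259494 reads on genes, with duplicates removed. Levels below are normalised counts, whole reads of each library divided by 1 scaling factor per library computed over all 9, with libraries numbered 1 to 3 in a group by falling size factor and not tied to single samples. No transcript lengths were used, so levels are compared between groups and not between genes. Ezh2 was at a higher level in libraries labelled mutant RGC, with 1962, 1863 and 1811 against 1154, 1169 and 1576 in WT (log2 difference 0.58, SE 0.13, limma adjusted p = 0.0292), and Ehmt2 was lower (log2 difference -0.43, SE 0.11, limma adjusted p = 0.0332). Counts per gene also take in transcripts that lack only the floxed exons, so the deletion and the label were not checked by them. Irx directions below are those between libraries so labelled. The summed level of 18 ganglion cell markers, none of them at 0, was 9473, 11367 and 5121 in mutant non-RGC libraries 1 to 3, then 19300, 31573 and 31314 in mutant RGC libraries, and 47518, 48310 and 41235 in WT RGC libraries. Mutant non-RGC library 3 and mutant RGC library 1 stood apart as the lowest of their groups.

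Mutant RGCs were set against WT RGCs to see how the bead-selected cells differ by genotype. All 6 Irx genes were lower in mutant RGCs, and for each of the 6 every mutant library lay below every WT library. Irx3, which acts in the neural tube and in heart conduction, fell 1.85-fold and Irx6, a gene of OFF bipolar cells, fell 1.81-fold, and both passed the test. The IrxA genes Irx1, Irx2 and Irx4 had means 2.00-fold to 2.88-fold lower but did not pass, and Irx5 was 1.14-fold lower and did not pass.

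Irx3 had 298, 488 and 498 normalised counts in mutant RGC libraries, against 917, 806 and 713 in WT RGC libraries. Its highest mutant library was well below its lowest WT library, and the log2 difference was -0.92 (SE 0.22, limma adjusted p = 0.0336). Irx6 had 583, 1099 and 995 in mutant RGCs, against 1762, 1750 and 1472 in WT RGCs. The groups again did not overlap, and the log2 difference was -0.91 (SE 0.25, limma adjusted p = 0.0413). The middle gene of IrxB, Irx5, which is best known from cone bipolar cells and heart, had 1326, 1383 and 1517 in mutant RGCs, against 1645, 1683 and 1622 in WT RGCs. That gap was small. The SD was 30.9 around a mean of 1650.0 in WT RGCs, and 97.8 around a mean of 1408.5 in mutant RGCs. The log2 difference of -0.20 (SE 0.08) missed the threshold (limma adjusted p = 0.0919).

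The 3 IrxA genes varied most between mutant libraries. Irx4, a gene of the heart ventricle and of ganglion cells, had 392, 1094 and 1161 in mutant RGCs, against 2032, 1940 and 1537 in WT RGCs. Irx2, also found in ganglion cells, had 230, 832 and 895 in mutant RGCs, against 1526, 1430 and 1078 in WT RGCs. Irx1 had 38.9, 175 and 232 in mutant RGCs, against 536, 460 and 328 in WT RGCs. In each case mutant library 1 lay far below the other mutant libraries, and WT library 3 was the lowest of WT. Their log2 differences were -1.17 for Irx4 (SE 0.42), -1.22 for Irx2 (SE 0.52) and -1.85 for Irx1 (SE 0.65), with limma adjusted p of 0.0769, 0.115 and 0.0732.

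**Figure D1:**
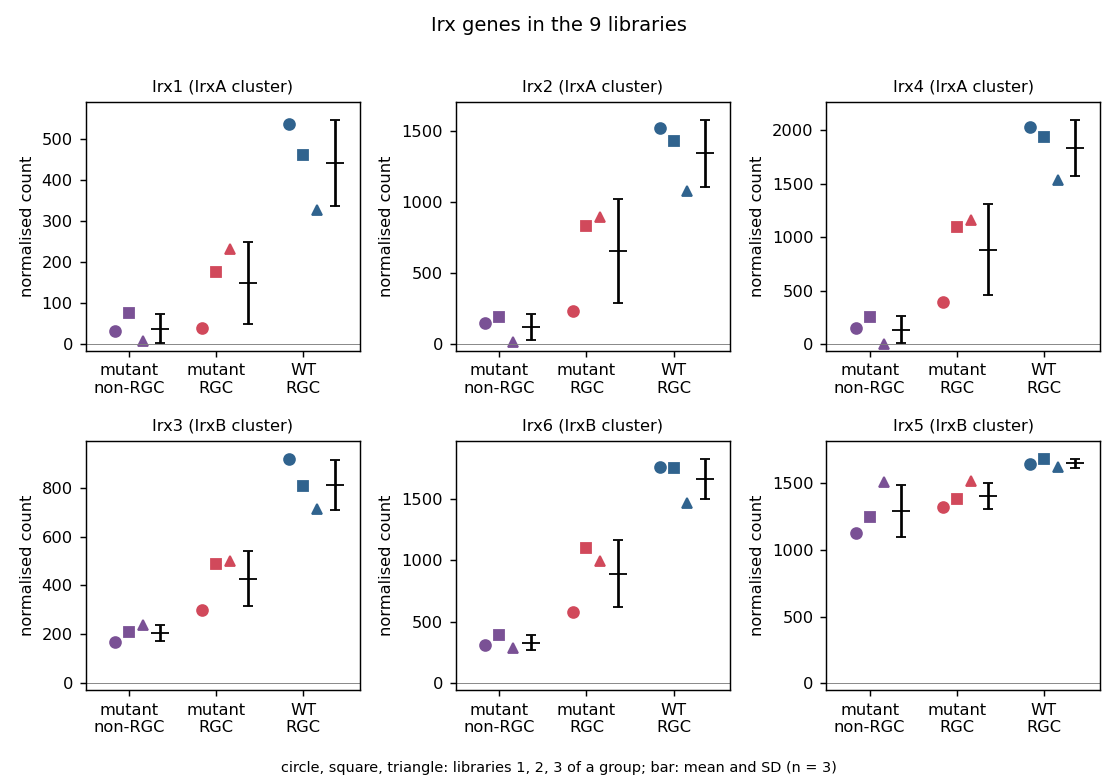
Normalised counts of the 6 Irx genes (vertical axes, linear) in mutant non-RGC, mutant RGC and WT RGC libraries, 3 of each. Symbols are single libraries and bars the mean and SD. In all 6 genes the mutant RGC libraries sit below the WT RGC libraries, and Irx5 shows the smallest steps.

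Thus 2 of the 6 genes changed, both lower, where 26.0% of the 15276 genes tested changed (2092 higher and 1879 lower). All 6 Irx genes had groups that did not overlap with the mutant lower, as did 24.9% of all genes tested. The median log2 difference of the 6 was -1.04, against 0.00 for all genes tested. The share of tested genes with a still lower difference was 0.484% for Irx1, 3.65% for Irx2, 4.35% for Irx4, 7.91% for Irx3, 8.08% for Irx6 and 33.1% for Irx5. For the genotypes, the authors' deposited table called 3024 of 25338 genes. Of the 6 it called 4, with log2 fold changes of -1.53 for Irx1 (adjusted p = 0.00461), -1.01 for Irx4 (0.0148), -0.88 for Irx3 (0.000914) and -0.86 for Irx6 (0.00199). Irx2 just missed in the authors' deposited table (log2 -0.998, adjusted p = 0.0528), and Irx5 did not pass there (log2 -0.19, adjusted p = 0.640).

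Single libraries decided the limma calls. Without WT library 1 or 2 the adjusted p was 0.129 and 0.105 for Irx3 and 0.143 and 0.123 for Irx6, and without mutant RGC library 2 or 3 it came to 0.0728 and 0.0671 for Irx3 and 0.0728 and 0.0731 for Irx6. In those 4 fits between 3 and 9 genes of the whole table passed, against 3971 with all libraries. Without mutant RGC library 1, 4 Irx genes passed, Irx1 (log2 -1.05, limma adjusted p = 0.0444) and Irx4 (log2 -0.64, limma adjusted p = 0.0390) among them, while 2284 genes passed in all; the differences of Irx1, Irx2 and Irx4 were then smaller by over 1.5 times, that of Irx2 at -0.57. Without WT library 3, 6478 genes passed in all, and 2 Irx genes as before.

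**Figure D2:**
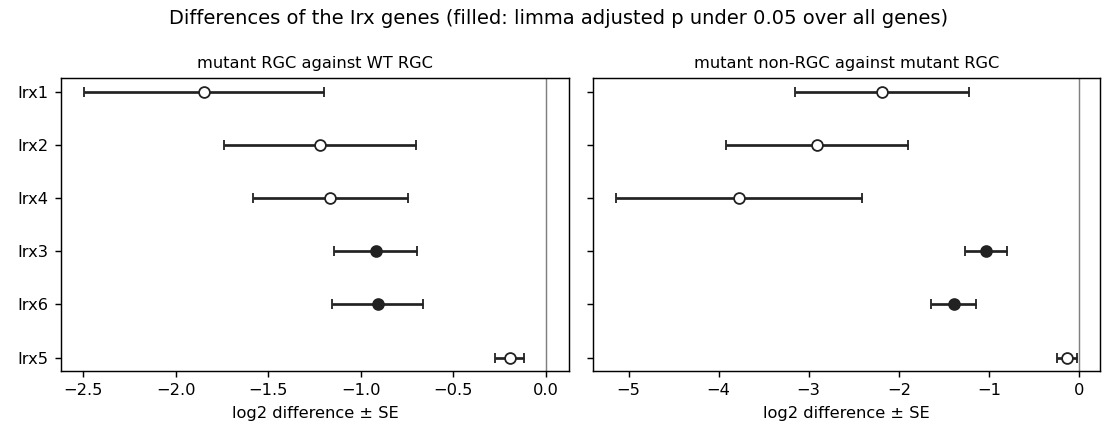
Log2 differences of the 6 Irx genes with their SE (horizontal axis), on the left mutant RGC against WT RGC and on the right mutant non-RGC against mutant RGC. Filled points passed the limma test over all genes, which only Irx3 and Irx6 did, in both comparisons.

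Marker genes of several cell types moved in the same libraries. Of the 18 ganglion cell markers 9 fell and none rose in mutant RGCs, with a median log2 difference of -0.79. The fall of the heavy neurofilament gene Nefh was 1.67 on the log2 scale (a difference of -1.67, SE 0.24, limma adjusted p = 0.0225) and Thy1 had a difference of -0.80 (SE 0.18, limma adjusted p = 0.0305). Of 12 genes of dividing cells 11 rose, and their summed level was between 25578 and 26727 in mutant RGCs, against 11536 to 19714 in WT RGCs. Of 11 photoreceptor markers 7 rose, with sums from 11682 to 17789 in mutant RGCs against 7215 to 10509 in WT RGCs. Among 12 markers of progenitors and Mueller glia 4 rose, and among 9 of amacrine cells 6 rose and 1 fell. Of 13 bipolar cell markers 10 were tested and 2 rose, Bhlhe22 and Lhx4; the sums were 3786 to 4513 in mutant RGCs and 3242 to 3441 in WT RGCs. None of 12 microglia markers passed, and their sum ranged from 2383 to 8372 in mutant RGCs and from 3758 to 5401 in WT RGCs. Of 4 horizontal cell and 6 vessel markers 1 each rose, Lhx1 and Kdr, of 3 tested astrocyte markers Aldoc fell, and of 4 tested pigment epithelium and lens markers Pmel rose. None of the listed markers was at 0 in all 9 libraries. The libraries that were lowest for the IrxA genes also stood apart here. Mutant RGC library 1 had a microglia sum of 8372, where libraries 2 and 3 of that group had 2674 and 2383, a vessel marker sum of 9131 against 5370 and 5504, and a pigment epithelium and lens sum of 577 against 227 and 264. WT library 3 had a sum of 19714 for dividing cells, against 11536 and 12832 in the other WT libraries. In such bulk samples fewer cells of a type and less RNA per cell cannot be told apart, and the part of this mixture in the Irx differences was not tested.

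The Irx levels were also set against the ganglion cell markers of the same library, in units of normalised counts per 1000 summed counts of the 18 markers. In these units Irx3 had 15.4, 15.5 and 15.9 in mutant RGCs, against 19.3, 16.7 and 17.3 in WT RGCs, and Irx6 had 30.2, 34.8 and 31.8 in mutant RGCs, against 37.1, 36.2 and 35.7 in WT RGCs. Both were thus within a narrow range of the marker level in all 6 RGC libraries, though mutant libraries remained lower. Irx1 had 2.01, 5.53 and 7.40 in mutant RGCs, against 11.3, 9.52 and 7.95 in WT RGCs, and Irx4 had 20.3, 34.6 and 37.1 in mutant RGCs, against 42.8, 40.2 and 37.3 in WT RGCs. Irx2 had 11.9, 26.4 and 28.6 in mutant RGCs, against 32.1, 29.6 and 26.1 in WT RGCs. For the 3 IrxA genes mutant library 1 was low also relative to the markers. The groups overlapped for Irx2, and were apart only narrowly for Irx1 (7.40 against 7.95) and Irx4 (37.1 against 37.3). The share of all genes without overlap in these units was not counted. The lack of overlap of Irx1, Irx3, Irx4 and Irx6 here is thus not read as a result about the members. Irx5 went the other way, with 68.7, 43.8 and 48.4 in mutant RGCs against 34.6, 34.8 and 39.3 in WT RGCs. With all genes scaled by the marker sums, which raised the median log2 difference of all genes to 0.74, Irx1 passed at -1.12 (limma adjusted p = 0.0382), Irx3 and Irx6 did not at -0.18 and -0.17 (limma adjusted p = 0.532 and 0.522), and Irx5 was at 0.54 (limma adjusted p = 0.0748). This scaling moves all genes by nearly the same amount, so all 6 differences stayed below the median, as they were before it. In non-RGC libraries 1 to 3 Irx3 had 17.9, 18.5 and 46.2 per 1000 marker counts, Irx5 had 119, 110 and 294, and Irx4 had 15.9, 22.1 and 0.803, so library 3 was the highest for these IrxB genes and the lowest for Irx4.

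**Figure D3:**
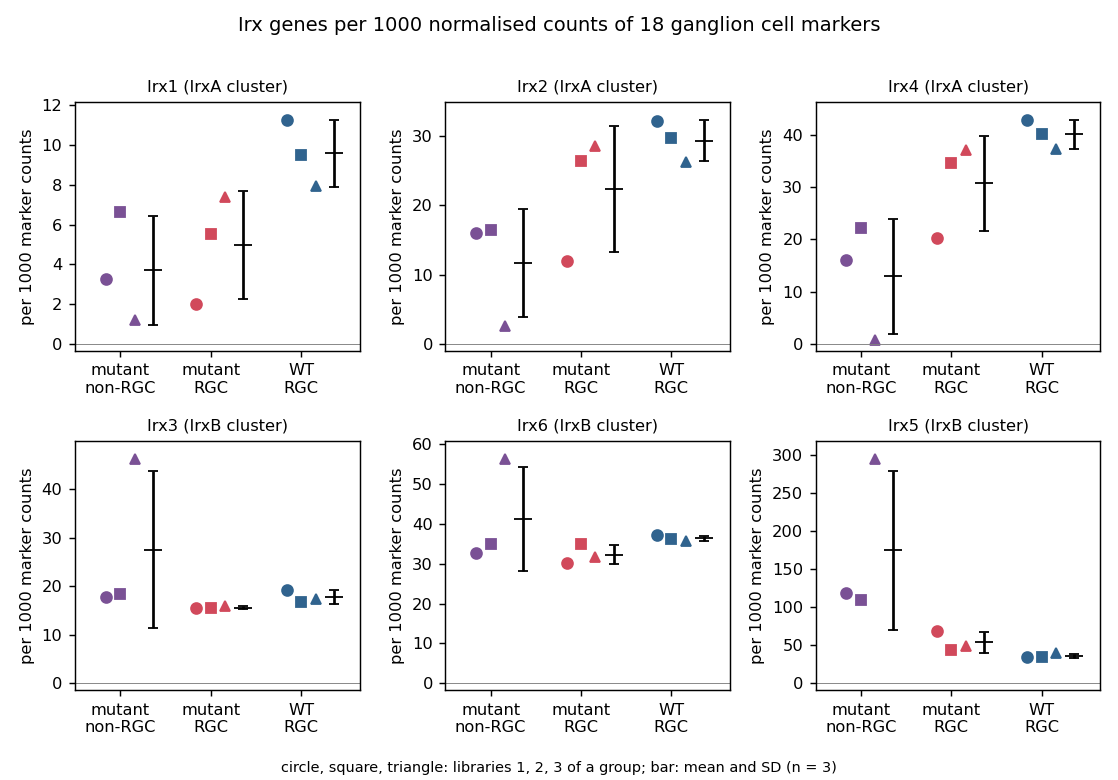
The 6 Irx genes per 1000 normalised counts of 18 ganglion cell markers (vertical axes, linear), by library, with mean and SD of 3. Irx3 and Irx6 are nearly level across RGC libraries, Irx5 is higher in mutant than in WT RGCs, and mutant non-RGC library 3 stands apart upward for the IrxB genes and downward for the IrxA genes.

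The mutant fractions were compared for the level of Irx transcripts, relative to the other transcripts of a library, in cells that the beads left behind and cells that they held. How the transcripts of the whole retina divided between the fractions cannot be read from such levels. Irx6 was 2.70-fold and Irx3 2.09-fold lower in non-RGC cells, and both passed. Irx4, Irx2 and Irx1 had the largest fold differences, 6.54, 5.60 and 3.98-fold lower in non-RGC cells by their means, and did not pass. Irx5 was at nearly the same level in the 2 fractions.

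Irx6 had 309, 397 and 288 normalised counts in mutant non-RGC libraries, against 583, 1099 and 995 in mutant RGC libraries (log2 difference -1.39, SE 0.25, limma adjusted p = 0.0143). Irx3 had 169, 210 and 237 in non-RGC cells, against 298, 488 and 498 in mutant RGCs (log2 difference -1.03, SE 0.23, limma adjusted p = 0.0244). For both genes each non-RGC library lay below each RGC library. Irx5 had 1126, 1249 and 1508 in non-RGC cells, against 1326, 1383 and 1517 in mutant RGCs, and these ranges overlapped (log2 difference -0.13, SE 0.11, limma adjusted p = 0.480).

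Irx4 had 151, 251 and 4.11 in non-RGC cells, against 392, 1094 and 1161 in mutant RGCs, with a log2 difference of -3.78 (SE 1.37, limma adjusted p = 0.102). Irx2 had 151, 187 and 13.4 in non-RGC cells, against 230, 832 and 895 in mutant RGCs (log2 difference -2.91, SE 1.01, limma adjusted p = 0.0910). Irx1 had 30.8, 75.5 and 6.17 in non-RGC cells, against 38.9, 175 and 232 in mutant RGCs (log2 difference -2.19, SE 0.96, limma adjusted p = 0.169). The groups did not overlap for Irx2 and Irx4, and overlapped for Irx1. Non-RGC library 3 held only 4 reads of Irx4, 13 of Irx2 and 6 of Irx1, yet 1466 of Irx5, 280 of Irx6 and 230 of Irx3. The same library had 10.3 normalised counts of Thy1, against 209 and 351 in the other non-RGC libraries, and 24.7 of the ganglion cell transcription factor gene Pou4f2, against 341 and 497.

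Here 2 of the 6 Irx genes changed, both lower, where 17.1% of the 15178 genes tested changed. Those genes divided into 770 higher and 1820 lower, while scaling by total counts gave 1465 higher and 1598 lower. Non-RGC libraries lay wholly below mutant RGC libraries for 20.6% of tested genes and for 4 of the 6 Irx genes. The median log2 difference of the 6 was -1.79, against 0.01 for all genes, and 0.718% of tested genes lay below Irx4, 1.15% below Irx2, 2.15% below Irx1, 5.06% below Irx6, 7.75% below Irx3 and 32.7% below Irx5. The authors' deposited table called 1635 of 25252 genes between fractions. Among them were Irx4 (log2 -2.71, adjusted p = 0.0172), Irx6 (log2 -1.43, adjusted p = 0.0106) and Irx3 (log2 -1.07, adjusted p = 0.0234). In the authors' deposited table Irx2 had an adjusted p of 0.0810 and Irx1 one of 0.379. The genotype and the fraction comparison share the mutant RGC libraries, so the values of those libraries enter both.

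The limma call of Irx6 between fractions was lost without non-RGC library 1 (adjusted p = 0.0644) or mutant RGC library 2 or 3 (0.0546 and 0.0568), and that of Irx3 on leaving out non-RGC library 1 (0.0939), non-RGC library 2 (0.0688), mutant RGC library 2 (0.0937) or mutant RGC library 3 (0.0899). The number of genes called over the whole table then lay between 438 and 1243, against 2590. Without non-RGC library 3 the differences of the IrxA genes shrank to -1.25 for Irx1, -1.72 for Irx2 and -2.02 for Irx4, and that of Irx5 was -0.24; without non-RGC library 1 that of Irx5 was -0.04. Markers moved here too. Of the 18 ganglion cell markers 12 were lower in non-RGC cells and none higher (median log2 difference -2.11), and all 12 microglia markers were lower, with sums of 207 to 269 in non-RGC cells against 2383 to 8372 in mutant RGCs. Of 12 genes of dividing cells 7 were higher in non-RGC cells, and none of the 11 photoreceptor markers passed. In the remaining lists, 3 of 12 markers of progenitors and Mueller glia and 1 of 9 of amacrine cells were higher, and Prkca among bipolar and Crybb1 among pigment epithelium and lens markers were lower. The part of these in the Irx differences was not tested.

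**Figure D4:**
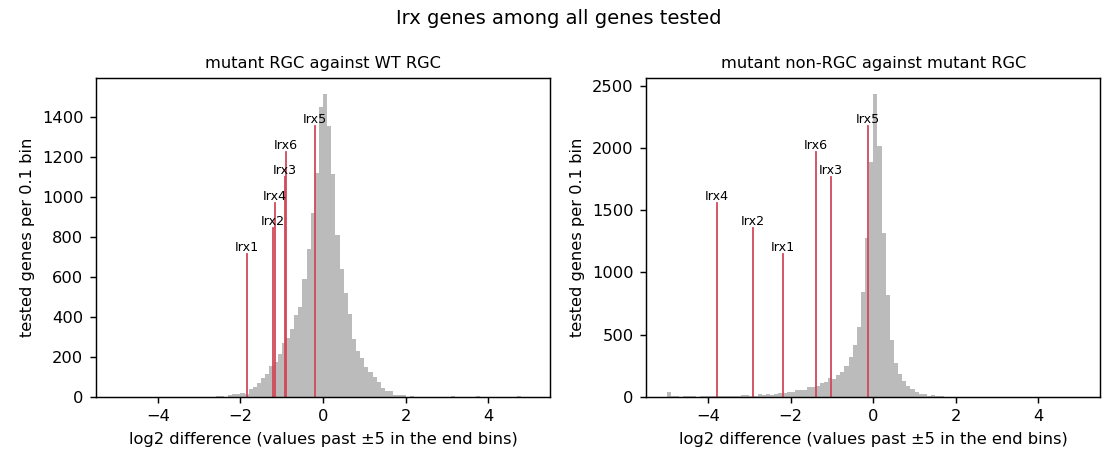
Histograms of log2 differences of all genes tested (grey, number of genes per bin of the log2 axis), with the 6 Irx genes marked by red lines, for mutant RGC against WT RGC on the left and mutant non-RGC against mutant RGC on the right. Irx5 lies near the centre of both, and the other Irx genes lie in the lower tail.

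Within a library the clusters can be compared without any scaling. The reads of Irx1, Irx2 and Irx4 together, divided by those of Irx3, Irx5 and Irx6, gave ratios of 0.207, 0.276 and 0.0116 in mutant non-RGC libraries 1 to 3. The ratio was 0.300, 0.707 and 0.760 in mutant RGC libraries and 0.947, 0.903 and 0.773 in WT RGC libraries. Every mutant RGC library was below every WT library, with a mean log2 ratio of -0.88 ± 0.75 against -0.20 ± 0.15 (SD, n = 3 each). Without mutant RGC library 1 the difference in log2 ratio was -0.25, against -0.68 with it. Every mutant non-RGC library was below every mutant RGC library, at -3.52 ± 2.53 against -0.88 ± 0.75 (SD, n = 3 each). Without non-RGC library 3 that difference was -1.18, against -2.64 with it. An exact permutation test of 3 against 3 cannot go below p = 0.1, so no test of the ratios is given. Irx5, which varied least of the 6, is part of the IrxB sum. With Irx5 left out of that sum, the groups overlap in both comparisons. In mutant RGC library 3, 2350 IrxA reads then face 512 of Irx3 plus 1022 of Irx6. The corresponding reads of WT library 3 are 2686, 651 and 1343, a lower ratio. Between fractions, non-RGC library 2 (530, 217 and 410) comes out above mutant RGC library 1 (715, 322 and 630). A larger fall of IrxA than of Irx3 and Irx6 in every library is thus not shown.

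Across the 9 libraries the members fell into unlike profiles, measured as the root mean square difference of log2(value + 1) after each gene was centred on its own mean. Irx3 and Irx6 were close at 0.24. Irx1 and Irx2 were 0.47 apart, Irx2 and Irx4 0.63, and Irx1 and Irx4 0.98. The last was near the 1.10 between Irx1 and Irx6, which are of different clusters. Irx5 was 0.69 from Irx3 and 2.54 from Irx4. These distances grow with how much a gene varies, and the libraries share composition and depth. Among 11921 other genes with a mean of at least 50, Irx6 had rank 202 in nearness to Irx3, and Irx3 had rank 195 to Irx6. Irx2 had rank 10 to Irx1 and rank 7 to Irx4, while Irx1 had rank 24 and Irx4 rank 51 to Irx2. The nearest of all to Irx4 were Mstn, which encodes myostatin, at 0.12, Thy1 at 0.36 and the POU factor gene Pou4f3 of ganglion cells at 0.42. Nearest to Irx2 were the sodium channel gene Scn9a at 0.23, the T-box gene Tbx20 at 0.26 and the cytochrome gene Cyp4x1 at 0.31. Nearest to Irx1 were the zinc finger gene Gfi1 at 0.18, Scn9a at 0.29 and the serotonin transporter gene Slc6a4 at 0.37. For Irx3 they were the RNA-binding protein gene Celf6 at 0.08, the fatty acid-binding protein gene Fabp3 at 0.09 and Eef1a2, an elongation factor gene of neurons and muscle, at 0.11. For Irx6 they were Olfm2 at 0.07, the small GTPase gene Diras1 at 0.07 and the complexin gene Cplx1 at 0.08. For Irx5 they were Eid2 at 0.05, the sorting nexin gene Snx15 at 0.05 and Atxn10 at 0.05.

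Among other homeobox genes of the TALE class more rose than fell. Of 12 relatives, all tested, 5 rose and 1 fell in mutant RGCs, with a median log2 difference of 0.17. Those that rose included Pknox1 (log2 difference 0.62), Meis1 (0.26) and Meis2 (0.42), whose products partner Hox proteins, and the repressor gene Tgif1 (0.88), and Meis3 fell (-0.57). Between the fractions Tgif1 (0.40) and Tgif2 (0.25) were higher in non-RGC cells, and the median of the list was 0.11. The list was chosen with earlier results of these data known, and the difference from the Irx genes was not tested.

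Of 24 genes linked to Irx function in retina, heart or neural tube, 20 were tested. In mutant RGCs 5 rose and 1 fell, with a median log2 difference of 0.24. Bhlhe22, a bipolar and amacrine factor gene (0.58), the neural tube and progenitor genes Olig2 (1.68), Neurog1 (1.03) and Neurog2 (1.16) were among those that rose, and the corepressor gene Tle2 fell (-0.98). Between the fractions the potassium channel gene Kcnd2, which Irx5 represses in mouse heart, was lower in non-RGC cells (log2 difference -2.84, limma adjusted p = 0.0316). So were the ganglion cell ligand gene Shh (-2.92, limma adjusted p = 0.0379) and Slit1 (-0.26, limma adjusted p = 0.0474), while Tle2 (0.93) and the deacetylase gene Hdac1 (0.27) were higher. The median over the 20 was 0.06.

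The neighbours of the clusters were taken by position, 8 protein-coding RefSeq genes on each side. Of the 16 around IrxA 13 were in the tables and 10 were tested between genotypes, with a median log2 difference of 0.04. The ubiquitin-conjugating enzyme family gene Ube2ql1 (-0.97, limma adjusted p = 0.0286) and the amino acid transporter gene Slc6a19 (-1.30, limma adjusted p = 0.0355) fell. Slc6a19 had a low level, with means of 12.8 in mutant RGCs and 34.3 in WT RGCs by the authors' factors. Mrpl36 (0.48), a mitochondrial ribosome gene 58.9 kb beyond Irx4, and Srd5a1 (0.37) rose. Ndufs6, at 50.3 kb the nearest to Irx4, did not pass (log2 difference -0.09, limma adjusted p = 0.396). Of the 16 around IrxB 11 were tested, with a median of 0.02. Slc6a2, the noradrenaline transporter gene, 279.5 kb beyond Irx6, rose and had 248, 138 and 105 normalised counts in mutant RGCs against 42.3, 27.4 and 37.3 in WT RGCs (log2 difference 2.13, SE 0.34, limma adjusted p = 0.0238). Of the 11 only it and Tox3 (0.32) passed. The obesity-linked gene Fto, which lies 130.1 kb from Irx3 and holds distant Irx3 enhancers in its introns, had a log2 difference of -0.10 and did not pass (limma adjusted p = 0.390). Between the fractions Ube2ql1 was lower in non-RGC cells (-1.67, limma adjusted p = 0.00711) among 9 tested genes around IrxA, and Sall1 was lower (-1.89, limma adjusted p = 0.0316) among 11 around IrxB.

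Inside IrxB lies Crnde, a long noncoding RNA gene that the tables list under its older symbol 4933436C20Rik. The nearer edge of its annotated span lies 1.68 kb from that of Irx5. Crnde was chosen after its values were seen. It had 196, 179 and 196 normalised counts in mutant RGCs, against 346, 305 and 381 in WT RGCs (log2 difference -0.81, SE 0.12, limma adjusted p = 0.0229). In mutant non-RGC cells it had 325, 336 and 312, above all mutant RGC libraries (log2 difference 0.77, SE 0.10, limma adjusted p = 0.00759). Unlike the 6 Irx genes it was thus lowest in mutant RGCs and near the WT RGC level in mutant non-RGC cells. Irx3os, a noncoding gene beside Irx3, was not analysed here.

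**Figure D5:**
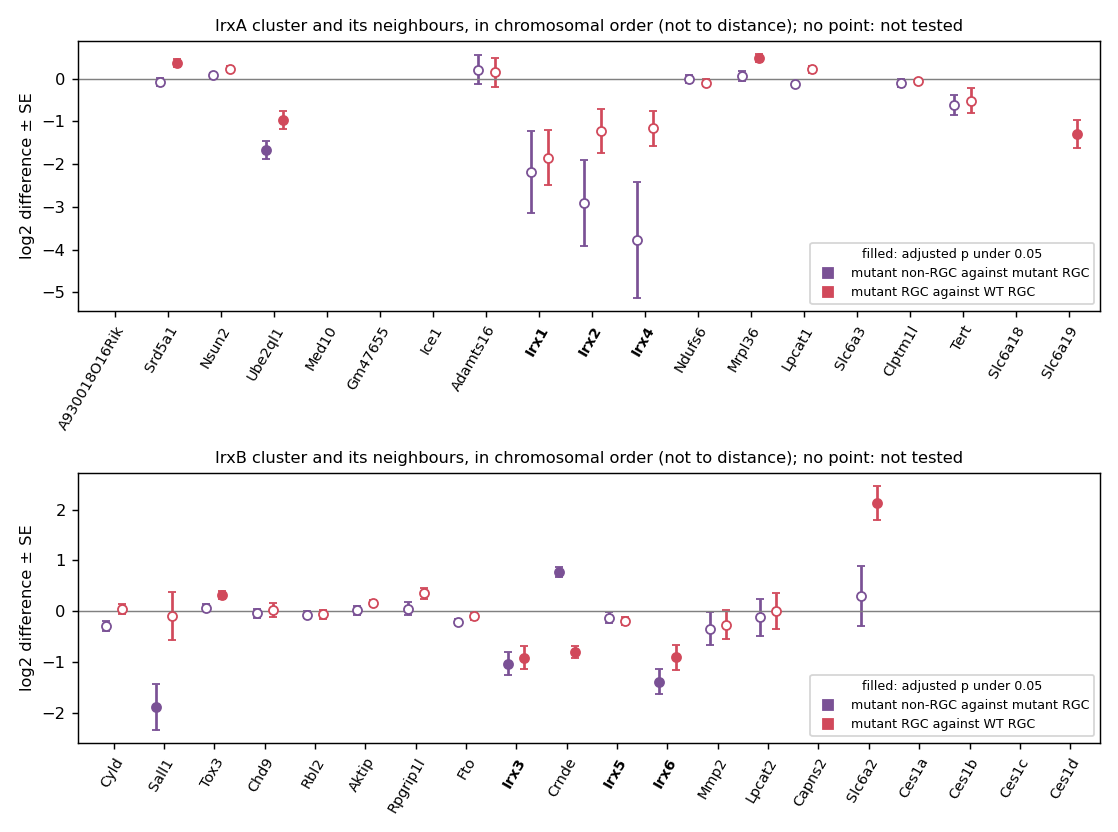
Log2 differences with SE of the Irx genes, Crnde and their protein-coding neighbours in chromosomal order, IrxA above and IrxB below, for mutant non-RGC against mutant RGC (purple) and mutant RGC against WT RGC (red). Filled points passed the limma test. The closest neighbours, Adamts16, Ndufs6, Fto and Mmp2, did not pass in either comparison, and Slc6a2 stands apart upward between genotypes.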

How the data were processed

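The members were listed by symbol, and they and all gene lists were chosen with earlier results of these data known. Per the submitters' processing notes, the tools were STAR 2.3, featureCounts, DESeq and FastQC, with mm10; no source used here gives the strand setting. Per the file headers, the deposited signal is a mean of normalised counts per condition, beside the authors' ratio of condition B to condition A (fold change), its log2 value, and the authors' p-value and adjusted p-value. No column holds a single library. Mutant RGC was identified as condition A of one table and B of the other, which were at 0 in the same 14765 genes with 0 mismatches.

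Each library's whole counts were solved from the condition means, as sums of 3 whole numbers each divided by 3 times a size factor, the smallest steps giving the factors. Between 99.975% and 100% of genes above 0 had 1 solution, and all 23953 mutant RGC genes compared came out identical from both tables. Ank2, Kif1b, Reln, Adcy1, Map1b and Dync1h1 were left out where unsolved. Libraries carry no sample number. Recovered counts divided by the authors' size factors were tested with limma 3.58.1 (R 4.3.3), variance trend, on log2(value + 1), keeping genes whose mean over the 6 libraries reached 10, at a Benjamini-Hochberg adjusted p under 0.05 over all genes. Fold changes on that scale understate changes of low genes. Per the table names, duplicates were removed, which limits high counts. Means, SDs and plots use 1 factor per library over all 9 libraries (medians of ratios); fold differences quoted with a test use the authors' factors. All 6 members passed the filter in both comparisons. Genes named outside the family are those of the lists that passed, up to 4 per list, comparison and direction, and the 3 genes nearest in profile. Crnde, Pou4f2, Ndufs6, Fto, and the single calls of small marker lists were named after their values were seen. The fits and the recovery were tested on simulated data. A scaling to ganglion cell markers, and leaving single libraries out of the cluster ratio, were added after seeing the data. A further result among the homeobox relatives is not reported here.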

Additional observations from a re-analysis of the deposited data

How the results depend on the processing

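No paired analysis was possible because the tables carry no replicate numbers for the libraries. Levels per transcript length were not run, as no transcript lengths were at hand. All 168 log2 differences of the Irx genes under the alternatives other than a scaling to ganglion cell markers, the authors' deposited values and single libraries left out included, were below 0. Between genotypes the groups did not overlap for any Irx gene. Leaving out a library or changing the pseudocount could thus not turn a sign there. Under the scaling to ganglion cell markers 4 differences changed sign. The number of Irx genes called stayed at 2 in each comparison under both other pseudocounts, no filter, upper-quartile and total-count scaling, voom weights and a fit to all 9 libraries. With the authors' deposited adjusted p it was 4 between genotypes, where 3024 of 25338 genes were called, and 3 between fractions, where 1635 of 25252 were. Irx1 and Irx4 then passed between genotypes (log2 -1.525 and -1.013) and Irx4 between fractions (log2 -2.71). Scaling to the ganglion cell markers, added after seeing the data, gave 7688 genes and 1 Irx gene between genotypes and 13770 genes and 3 Irx genes between fractions, since it moves the median of all genes by 0.74 and 1.71. Under it the log2 difference between genotypes was -1.117 for Irx1, -0.1839 for Irx3, 0.5395 for Irx5 and -0.1736 for Irx6, and between fractions -1.228 for Irx2, 0.667 for Irx3, -2.139 for Irx4, 1.573 for Irx5 and 0.3123 for Irx6. The Irx genes called were Irx1, lower, between genotypes, and Irx2 and Irx4, lower, and Irx5, higher, between fractions. Of all genes called, 7540 were higher between genotypes and 13575 between fractions.

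Leaving out 1 library at a time gave between 3 and 6478 genes and between 0 and 4 Irx genes between genotypes, and between 438 and 3325 genes and between 0 and 2 Irx genes between fractions. The log2 differences between genotypes then ranged from -2.343 to -1.048 for Irx1, -1.57 to -0.572 for Irx2, -1.051 to -0.6592 for Irx3, -1.446 to -0.6418 for Irx4, -0.255 to -0.1361 for Irx5 and -1.098 to -0.6106 for Irx6. Between fractions they ranged from -2.978 to -1.253 for Irx1, -3.578 to -1.718 for Irx2, -1.287 to -0.9001 for Irx3, -4.838 to -2.019 for Irx4, -0.243 to -0.0388 for Irx5 and -1.683 to -1.206 for Irx6. The cause of these changes was not tested. Irx1, Irx2 and Irx4 rest on few reads in mutant non-RGC library 3, which limits their differences between fractions.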
